A study of Mus musculus with 18 samples.

Results

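The monosome fraction of mouse embryonic stem cells (ESCs) that lack Ddx6 was compared with that of wild-type (WT) cells. The comparison took 6 of the 18 libraries of the study, which are the 3 Ddx6 knockout (KO) and the 3 WT libraries made from RNA that sedimented with a single ribosome. Of the 51467 genes counted, 12705 were tested, each of which reached 3 CPM in 3 or more of the 18 libraries. CPM are counts scaled to the size of the library. All cells were V6.5 ESCs, a male hybrid mouse line, grown in serum with LIF and 2i, the inhibitors of GSK3 and MEK that hold ESCs in the naive state. The KO was made with a CRISPR guide against exon 7 of Ddx6 and is represented by 2 clones. Clone 1 gave KO gradient 1, and clone 2 gave the other KO gradients, 2 and 3. WT and KO cells alike were treated with cycloheximide at 100 ug/ml for 2 min and lysed, and the lysates were spun through gradients of 10 to 50% sucrose at 35000 rpm for 3 h. The polysome fractions of the same gradients, low (2 to 4 ribosomes) and high (4 ribosomes or more), served here only for comparison. Nothing in the labels says that the 3 gradients of a genotype came from separate cultures. The p-values rest on the spread between libraries within each genotype and fraction, pooled over all 18 libraries. The main fit took the fractions of a gradient as independent. The p-values do not reach beyond these gradients or beyond the 2 KO clones, and the gradients of clone 2 are not separate clones.

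An mRNA bound by a single ribosome sediments as a monosome. This fraction therefore holds transcripts with short reading frames, transcripts on which initiation is rare, and transcripts whose ribosome has just begun or is paused. Free ribosomes that carry no mRNA sediment in the same place. DDX6 is a DEAD-box RNA helicase of processing bodies. It bridges the CCR4-NOT deadenylase complex, which is recruited by microRNAs (miRNAs), to decapping factors and to proteins that hold mRNAs back from translation. A level in the monosome depends both on how much of a transcript the cell holds and on how that transcript is spread over the gradient. Unfractionated RNA was not analysed here, so these parts cannot be told apart in a change within the monosome, and the changes in the polysome fractions are given beside it.

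The WT monosome libraries were shallower than the KO libraries. They held 2543617, 4338977 and 4894677 counts, against 7735822, 7811071 and 7537656 in KO. Between 17158 and 18756 genes had a count in WT and between 19637 and 19729 in KO. After all 6 libraries were thinned to 2543617 counts, 17158 to 17445 genes were detected in WT and 17244 to 17328 in KO, so the ranges then overlapped. The 10 most counted genes took 7.11% to 7.87% of a WT library and 5.17% to 5.56% of a KO library. Principal component 1 of the 6 libraries held 72.6% of the variance and separated the genotypes, and WT gradient 1, the shallowest library, stood apart on component 2 (10.0% of the variance). ESC genes were abundant in every library. Over 24 pluripotency genes the summed level was 5774 to 5952 CPM in WT and 5912 to 6699 CPM in KO.

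Ddx6 itself was low in all 3 KO libraries. Its level was 143, 156 and 160.4 CPM in WT gradients 1 to 3 and 57.5, 26.7 and 17.6 CPM in KO gradients 1 to 3, a log2 change of -2.35 ± 0.48 (SE, n = 3 libraries per genotype), adjusted p = 6.9e-04 by limma. The groups did not overlap, and clone 1 kept more of the transcript than both gradients of clone 2. The gene lies at chr9:44604892-44640731 on GRCm38 (mm10). Reads from the 3′ end of the transcript do not cover the edited exon, so the fall is a level and not a reading of the edit.

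Loss of Ddx6 went with a broad change of the monosome. Of the genes tested, 2357 rose (18.6%) and 2548 fell (20.1%) at a Benjamini-Hochberg adjusted p under 0.05 from limma fitted across all genes. In 3261 genes (25.7%) all 3 KO libraries were above all 3 WT libraries, and in 3436 (27%) all 3 were below. By more than 1 on the log2 scale, 1006 genes rose and 1087 fell, and by more than 3, 100 rose and 57 fell. The median gene changed by -0.03, with a median SE of 0.21. Without chromosomes 6 and Y, which are described next, 2058 genes rose and 2499 fell. Among the 8353 genes with a mean of at least 50 counts in the WT monosome libraries, 1496 rose and 1859 fell, and with all libraries thinned to equal depth 1889 and 1904 of the 12705 did. Scaled by library size alone, 2672 rose and 2142 fell, and in a fit of the monosome libraries only 2850 and 2823 did, so which direction held more genes depended on the fit.

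Genes of chromosome 6 were raised as a whole in KO monosomes. Their median log2 change was 0.52 over 618 genes, a ratio of 1.43, while the medians of the other autosomes and of X lay between -0.14 and 0.03. Of the 618, 299 rose (48.4%) and 48 fell (7.77%), whereas 14.4% to 20.9% of genes rose on any other of these chromosomes. Both clones showed it. Over the 422 genes of chromosome 6 with a mean of at least 10 CPM, the median log2 ratio to the WT mean was 0.61 in KO gradient 1, 0.53 in gradient 2 and 0.55 in gradient 3. The WT libraries, each set against the other WT libraries, had medians of 0.02, -0.01 and -0.06 for the same genes. The shift ran along the whole chromosome. In 10 Mb windows from the first gene to the last, the median was above 0 in 15 of 15 windows, and in the 10 windows with at least 20 genes it lay between 0.31 and 0.92. In the low and the high polysome the same chromosome had medians of 0.55 and 0.52. DNA copy number was not measured, and the part that dosage of this chromosome plays in the changes of its genes was not tested. Genes on chromosome 6 are therefore marked as such below.

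**Figure D1:**
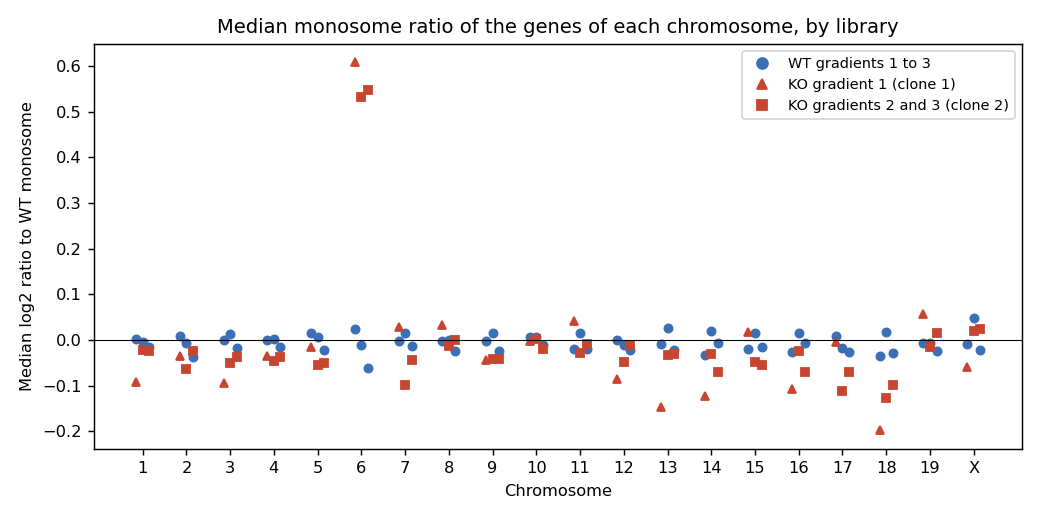
Median log2 ratio of monosome level to the WT monosome mean, over the genes of each chromosome with a mean of at least 10 CPM, with 1 point for each library. WT libraries (blue circles) are set against the mean of the other WT libraries, and KO libraries are drawn as red triangles (clone 1) and red squares (clone 2). Chromosome 6 stands at 0.53 to 0.61 in the 3 KO libraries, while every other chromosome shown lies between -0.20 and 0.06.

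Of 4 genes tested on the Y chromosome, 3 were at or near 0 in the libraries of clone 2 and not in that of clone 1. Ddx3y, an RNA helicase paralogous to Ddx3x, was at 4.38, 8.13 and 11.2 CPM in WT and at 12.5, 0.121 and 0 CPM in KO. Eif2s3y, a translation initiation factor subunit, was at 3.58, 3.02 and 3.52 CPM in WT and 13.5, 0 and 0 CPM in KO. Uty, a histone demethylase homologue, was at 4.78, 5.34 and 2.90 CPM in WT and 5.61, 0 and 0 CPM in KO. By limma Uty was called lower in KO (adjusted p = 0.033), while Ddx3y (0.055) and Eif2s3y (0.14) did not pass the test. The fourth, Gm47283, was at 264, 190.03 and 279.9 CPM in WT and 339.5, 148 and 145 CPM in KO and did not pass it (0.32). Together the transcripts of Ddx3y, Eif2s3y and Uty had 248 counts in the clone 1 library and 1 and 0 counts in the libraries of clone 2, against 32, 71 and 85 counts in WT. A count of 0 allows up to 3 counts, a limit for counting error only.

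The genes that rose most in KO monosomes were barely present in WT. The 8 with the largest rise among genes with a mean of at least 10 CPM and a recognised name changed by 3.90 to 5.50 on the log2 scale (SE 0.26 to 1.03, adjusted p at most 0.0036). Slc40a1, the iron exporter ferroportin, was at 0, 2.09 and 1.04 CPM in WT and 49.8, 35.7 and 37.1 CPM in KO, a log2 change of 5.50. Values alone in brackets after a level are log2 changes in the monosome from here on. Rhox9, a homeobox gene of the reproductive cluster on X, went from 3.19, 0.929 and 0.622 CPM to 39.2, 45.1 and 39.6 CPM, or 5.08. Its neighbour Rhox6 had 3.58, 2.79 and 2.49 CPM in WT and 109, 96.7 and 87.7 CPM in KO, or 5.04. Both Rhox genes thus had every KO library more than 10 times above every WT library. Krtdap, known from differentiating keratinocytes, was the most abundant of the 8 in KO, with 13.1, 6.97 and 9.32 CPM in WT and 278, 201 and 231 CPM in KO (4.67). For Rbm24, an RNA-binding protein of muscle and heart, the levels were 1.99, 1.63 and 1.24 CPM in WT and 28.2, 30.2 and 27.4 CPM in KO (4.10). The immune ligand gene Tnfsf9 had 1.59, 0.929 and 1.86 CPM in WT and 35.2, 19.1 and 26.5 CPM in KO (4.09), with the widest spread of the group. Crym encodes a thyroid hormone binding protein. It was at 1.19, 3.02 and 0.622 CPM in WT and 17.4, 24.7 and 26.8 CPM in KO (3.97). Peg10, an imprinted gene of retrotransposon origin on chromosome 6, was at 6.37, 2.79 and 1.86 CPM in WT and 39.7, 48.2 and 48.9 CPM in KO (3.90). In the high polysome the same 8 genes changed by 3.05 to 5.22, and none had a high polysome change that differed from its monosome change at an adjusted p under 0.05.

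Among abundant genes, with a mean of at least 100 CPM, the 6 largest rises beyond those were 2.86 to 3.86 on the log2 scale (SE 0.15 to 0.38, adjusted p at most 2.9e-07). Emp1, an epithelial membrane protein encoded on chromosome 6 at chr6:135362545-135383173, stood at 24.7, 19.5 and 18.9 CPM in WT and 283, 324 and 289.7 CPM in KO, a log2 change of 3.86. Igfbp7, a secreted protein that binds insulin-like growth factors, stood at 20.7, 28.8 and 17.4 CPM and 200.2, 362 and 328 CPM, or 3.71. Ociad2 rose from 82.4, 64.1 and 77.3 CPM to 525, 597 and 612 CPM, or 2.97. None of these genes had a KO library within the WT range, which was set by the way the genes were chosen. Mest, an imprinted gene on chromosome 6 at chr6:30723547-30748465, had 70.5, 46.9 and 50.3 CPM in WT and 348, 443 and 471 CPM in KO (2.95). S100a6, a small calcium-binding protein, had 69.3, 66.2 and 66.9 CPM in WT and 607, 434 and 475 CPM in KO (2.89). Lgals1, the lectin galectin-1, had 72.1, 62.5 and 49.1 CPM in WT and 508, 397 and 399 CPM in KO (2.86). Both encode short proteins. In 5 of the 6 genes, all but Igfbp7, the high polysome change was called below the monosome change. The difference (high polysome change minus monosome change) was -1.44 ± 0.21 for S100a6 (adjusted p = 2.9e-04), -1.19 ± 0.39 for Mest (0.042), -1.02 ± 0.22 for Lgals1 (0.0045), -0.94 ± 0.30 for Emp1 (0.036) and -0.93 ± 0.21 for Ociad2 (0.0047). Over all genes, such a difference was called above 0 in 10.7% and below 0 in 7.09%. The 6 genes were chosen for their large monosome rises, and those same values enter the difference. Their share is therefore not a fair comparison with that of all genes.

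The genes that fell most were nearly lost from KO monosomes. The 8 largest falls among genes with a mean of at least 10 CPM were between -5.80 and -3.14 (SE 0.25 to 0.41, adjusted p at most 2.0e-07). Gtsf1l, a relative of the germ cell factor Gtsf1, was at 36.6, 38.8 and 41.6 CPM in WT and 1.15, 0.846 and 0.257 CPM in KO, a log2 change of -5.80. Spic, an ETS transcription factor, went from 37.4, 43.7 and 42.1 CPM to 1.66, 2.54 and 2.18 CPM (-4.26). Pramel7, a PRAME family gene of the preimplantation embryo and naive ESCs, went from 27.1, 25.8 and 29.6 CPM to 3.44, 1.57 and 1.15 CPM (-3.86). For each of them the highest KO library was far below the lowest WT library, and that the groups did not overlap was set by the choice. H2-Eb1, a chain of MHC class II, was at 82.4, 69.5 and 58.2 CPM in WT and 6.12, 4.96 and 4.75 CPM in KO (-3.69). The secreted phospholipase gene Pla2g1b was at 23.5, 32.8 and 30.5 CPM in WT and 4.47, 1.33 and 2.31 CPM in KO (-3.59). Jag1 encodes a ligand of Notch receptors. Its levels were 20.3, 20.7 and 21.1 CPM in WT and 1.66, 1.33 and 2.31 CPM in KO (-3.55). Upp1, the uridine phosphorylase that salvages pyrimidines, was by far the most abundant of the 8, with 484, 543 and 556 CPM in WT and 71.7, 33.6 and 40.8 CPM in KO (-3.51). Ttc25, a component of ciliary dynein docking, had 20.3, 29.5 and 28.8 CPM in WT and 2.93, 3.02 and 2.95 CPM in KO (-3.14). None of the 8 lay on chromosome 6. In the low and high polysomes the same genes changed by between -5.99 and -2.65, and no difference between the high polysome and monosome changes was called.

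**Figure D2:**
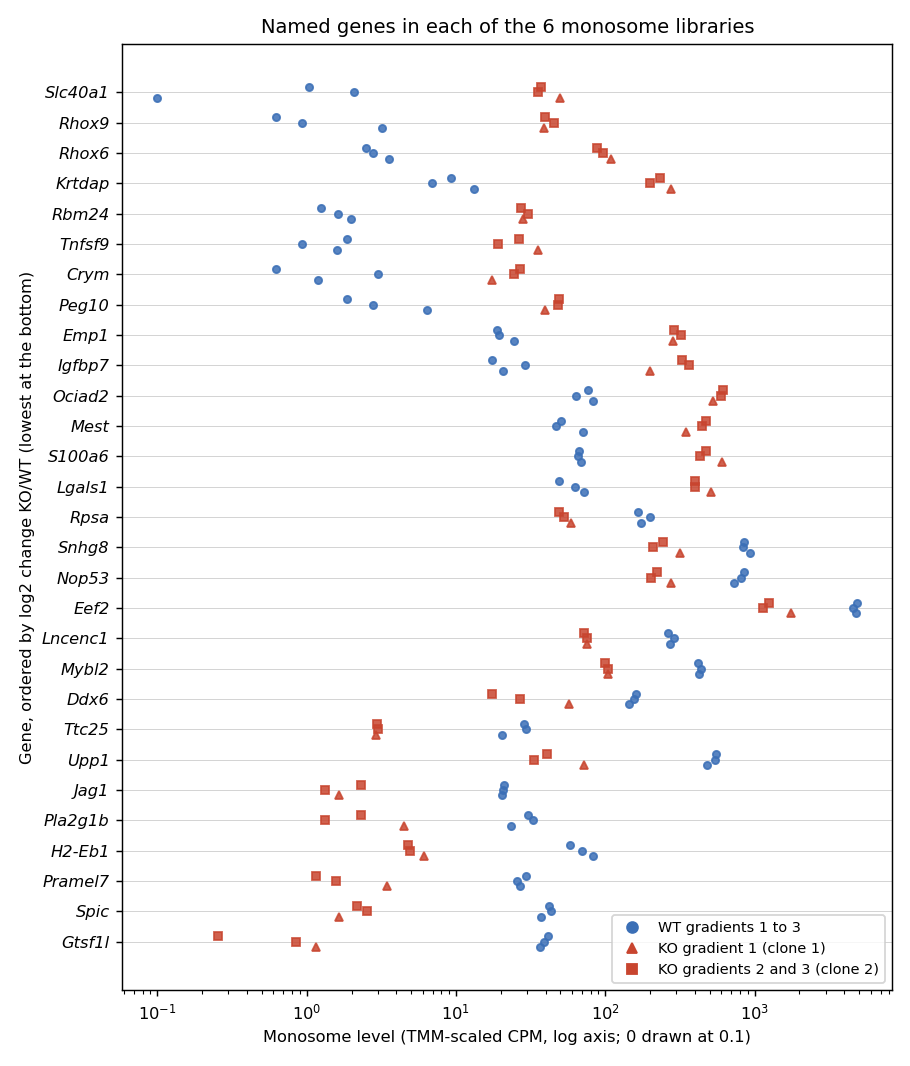
Level of the 29 named genes in each of the 6 monosome libraries, in CPM scaled by TMM on a log axis, with genes ordered by their log2 change. Blue circles are WT gradients, the red triangle is KO gradient 1 (clone 1) and red squares are KO gradients 2 and 3 (clone 2), and a level of 0 is drawn at 0.1. WT and KO points do not overlap in any row, which apart from Ddx6 is set by the way the genes were chosen, and Ddx6 and Igfbp7 are among the genes whose clones lie apart.

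The 6 largest falls among abundant genes were smaller, from -2.05 to -1.75 (SE 0.10 to 0.29, adjusted p at most 5.9e-05), and 3 of them were in genes for the translation machinery. Mybl2, the cell cycle transcription factor B-Myb, had 422, 436 and 417 CPM in WT and 104, 104 and 99.9 CPM in KO (-2.05). Lncenc1, a long non-coding RNA (lncRNA) of naive ESCs, had 274, 289.9 and 265 CPM in WT and 75.9, 75.9 and 71.95 CPM in KO (-1.89). Snhg8, a snoRNA host transcript, had 939, 831 and 847 CPM in WT and 315, 210.3 and 244 CPM in KO (-1.78). In the high polysome these 3 genes changed by -1.83, -1.69 and -1.07. Eef2, the factor that moves the ribosome along the mRNA, was one of the most abundant transcripts of the WT monosome, at 4812, 4564 and 4888 CPM, and stood at 1752, 1139 and 1248 CPM in KO (-1.81). Nop53, needed to build the large ribosomal subunit, went from 734, 813 and 851 CPM to 274, 202 and 221 CPM (-1.79). Rpsa, a protein of the small subunit, went from 175, 201 and 166 CPM to 58.7, 52.9 and 48.99 CPM (-1.75). In contrast to the former genes, the changes of Eef2, Nop53 and Rpsa in the high polysome were 0.36, -0.14 and -0.47. The difference between the high polysome and monosome changes was 2.17 ± 0.28 for Eef2 (adjusted p = 9.9e-05), 1.66 ± 0.25 for Nop53 (2.8e-04) and 1.28 ± 0.23 for Rpsa (0.0012). These genes too were chosen for large monosome changes, and those values enter the difference.

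Genes of the translation machinery fell in the monosome as a group. Cytosolic ribosomal proteins and most elongation factors are encoded by TOP mRNAs, which begin with a cytosine followed by a run of pyrimidines and whose translation is switched as a group. Of 80 ribosomal protein genes tested, 71 fell in KO monosomes, none rose and 9 did not pass the test, against 20.1% falling among all genes. Their median log2 change was -1.01 in monosomes, -0.57 in low polysomes and -0.51 in high polysomes, where the medians of all genes were -0.03, -0.03 and -0.01. Together they took 9.03%, 8.79% and 9.45% of the counts in the WT monosome libraries and 4.83%, 3.92% and 4.32% in the KO libraries. In the small subunit 28 of 32 genes fell (median -0.91), and in the large subunit 43 of 48 (median -1.08). Apart from Rpsa, the largest fall was that of Rpl13a, from 676, 687 and 656 CPM to 239, 189.8 and 204 CPM (-1.68 ± 0.11, adjusted p = 6.4e-10). In the high polysome Rpl13a changed by -0.31. The high polysome change was above the monosome change in 22 of the 80 genes (27.5%) at an adjusted p under 0.05 and below it in none. Of all genes, 10.7% were above and 7.09% below. Ribosomal protein genes have many processed pseudogenes, and reads that fit several copies were not counted, so their levels are uncertain.

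Elongation factors and other TOP mRNAs had the lowest monosome median of the lists. Of 23 genes tested 21 fell (91.3%, against 20.1% of all genes) and none rose. The medians were -1.24, -0.18 and -0.02 in the 3 fractions in the same order. They held 3.20%, 3.10% and 3.42% of the WT monosome counts and 1.43%, 1.23% and 1.33% of the KO counts. Besides Eef2, the initiation factor gene Eif4b, a classical TOP mRNA, went from 1274, 1051 and 1058 CPM to 399.7, 366 and 364 CPM (-1.58 ± 0.11, adjusted p = 1.8e-09), and its high polysome change was -0.07. In 15 of the 23 (65.2%, against 10.7% of all genes) the high polysome change was above the monosome change. It was below in none, against 7.09%. The CCT chaperonin, the ring that folds actin and tubulin, showed a like pattern with smaller values. Of its 8 subunit genes 7 fell (87.5%), with medians of -0.64, -0.05 and 0.01. Across the alternatives the falls of this list numbered 5 to 7. Cct2 went from 666, 542 and 555 CPM to 254, 259.6 and 271 CPM (-1.16), and Tcp1 from 289.5, 269 and 253 CPM to 111, 143 and 133 CPM (-1.07). The subunit gene Cct5 is on the list of TOP mRNAs too. Among the cytosolic chaperones, Hsp90ab1 went from 7133, 5879 and 6875 CPM to 2768, 2182 and 2435 CPM in the monosome (-1.43), with a high polysome change of 0.57. Its difference between the fractions was 2.00 ± 0.24 (adjusted p = 4.9e-05). Hspa8 changed by -1.31 in the monosome and 0.26 in the high polysome. Of 25 heat shock and ER chaperone genes 6 rose (24.0%) and 7 fell (28.0%), against 18.6% and 20.1% of all genes. The median was 0.05, so the list did not move one way. The falls numbered 4 without WT gradient 2 or without KO gradient 1.

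**Figure D3:**
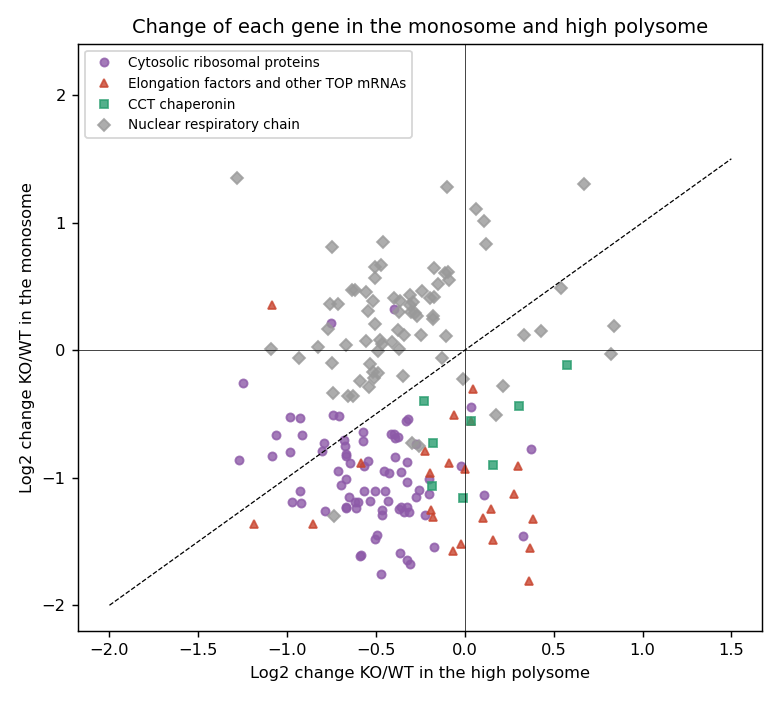
Log2 change KO/WT of each gene in the high polysome (horizontal axis) and in the monosome (vertical axis) for 4 gene lists, with the line of equal change dashed. Purple circles are 80 ribosomal protein genes, red triangles 23 elongation factors and other TOP mRNAs, green squares 8 CCT subunits and grey diamonds 76 nuclear genes of the respiratory chain. The first 3 lists lie mostly below the line and below 0 on the vertical axis, while the respiratory chain genes lie mostly above the line. The monosome and high polysome changes share no library.

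To look at the annotated start sites of these transcripts, a run of at least 6 bases was searched that opens with C and goes on with C or T. The search covered the sense strand from 10 bases before to 20 bases after the RefSeq start (GRCm38.p6). Of 59 ribosomal protein promoters on record there, 35 held such a run (59.3%), as did 8 of 17 promoters of the other TOP mRNAs (47.1%), 26.5% of 9595 promoters of genes tested and 24.9% of all 27025 in the table. The windows of 3 genes that fell are shown 5′ to 3′ with the run in capitals. Rpl13a is at chr7:45128726-45128755 on the minus strand, Eif3f at chr7:108934405-108934434 on the plus strand and Eef1a1 at chr9:78481705-78481734 on the minus strand.
Rpl13a: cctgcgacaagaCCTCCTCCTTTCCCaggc
Eif3f: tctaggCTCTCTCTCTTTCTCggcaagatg
Eef1a1: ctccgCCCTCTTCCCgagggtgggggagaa
The monosome changes of these genes were -1.68, -1.32 and -1.32. Across the genes tested the presence of a run went with little difference in the monosome, with a median change of -0.04 with a run and 0.00137 without. Among ribosomal protein genes the medians were -0.95 with a run and -0.96 without. Annotated starts can differ from the starts used in these cells, so a missing run says only that these letters are not in the window. A run in capitals may likewise be DNA before the start used and need not be part of the mRNA. For Eef1a1 the Gencode record on the minus strand begins at 78489151, outside the window shown. By that record the window lies after the start, within the span of the gene.

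Non-coding transcripts were lower on balance. Of 447 lncRNA genes 27 rose (6.04%) and 188 fell (42.1%, median -0.60). Of 301 pseudogenes 7 rose (2.33%) and 171 fell (56.8%, median -0.98). Among all genes 18.6% rose and 20.1% fell. Reads of a pseudogene and its parent gene can be hard to tell apart, so the pseudogene values are uncertain. The 11773 protein-coding genes had a median of 0.00085, with 19.7% higher and 18.02% lower. Among 25 snoRNA host and nuclear lncRNAs 15 fell (60.0%) and 1 rose (4.0%). The medians were -0.82, -0.97 and -0.45 in the 3 fractions in the order monosome, low and high polysome. The rises numbered 2 without KO gradient 2. The exception was H19, an imprinted lncRNA, at 19.9, 12.1 and 15.5 CPM in WT and 338, 65.1 and 63.6 CPM in KO (2.88 ± 0.68, adjusted p = 0.0023). The clone 1 library was well above both clone 2 libraries, and all were above WT. Gas5, a snoRNA host whose 5′ end is a TOP sequence, went from 1847, 1720.3 and 1729 CPM to 827, 632 and 712 CPM (-1.29). The polyadenylated transcripts of mitochondrial DNA are translated inside mitochondria. All 7 that were tested fell, with medians of -0.998, -0.74 and -0.34. For mt-Nd1, a subunit of complex I, the levels were 3123, 3825 and 2364 CPM in WT and 1073, 1661 and 1125 CPM in KO (-1.27 ± 0.20, adjusted p = 5.4e-05). The WT gradients differed for mt-Nd1. That the groups did not overlap was set by the way the gene was chosen.

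The change in the monosome ran with coding length. Genes with a coding length of 500 to 750 nt had a median log2 change of 0.21 in the monosome (1433 genes), and 446 rose (31.1%) while 182 fell (12.7%). Genes over 5000 nt had a median of -0.30 (486 genes), and 28 rose (5.76%) while 113 fell (23.3%). The high polysome ran the other way, from -0.22 to 0.34 in the same bins. Across the 11773 protein-coding genes Spearman's rho of coding length with the log2 change was -0.20 for monosomes, 0.01 for low polysomes and 0.30 for high polysomes. Coding length and level within single libraries had a rho of -0.15, -0.15 and -0.14 in WT monosomes and -0.21, -0.20 and -0.21 in KO monosomes, so that the values of the genotypes did not overlap. Genes are not independent replicates, and these correlations are descriptions. Leaving out the ribosomal protein and other TOP genes gave -0.22 for the monosome change over 11670 genes. The libraries read 3′ ends and counts were not divided by length, so a level is per transcript and does not rise with length by itself.

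**Figure D4:**
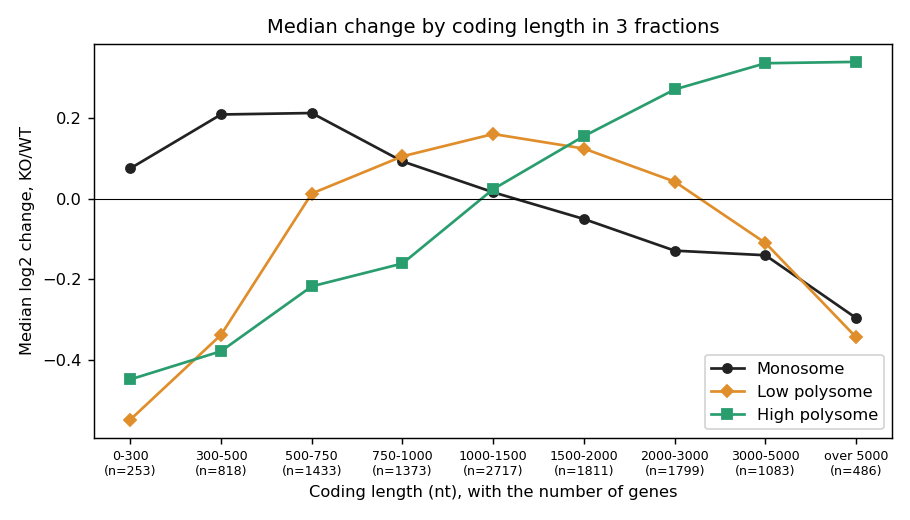
Median log2 change KO/WT of protein-coding genes in 9 bins of coding length (nt, with the number of genes in each bin), in the monosome (black circles), low polysome (orange diamonds) and high polysome (green squares). The monosome line falls from 0.21 at 300 to 750 nt to -0.30 over 5000 nt, while the high polysome line rises from -0.45 to 0.34. The shortest bin, up to 300 nt, has a monosome median of 0.08.

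Some lists of mostly short and of mostly long proteins are given beside this trend. Ribosomal protein genes, many of them short, went the other way. Their medians were -1.01 in monosomes, -0.57 in low polysomes and -0.51 in high polysomes. Nuclear genes of the respiratory chain, many of which encode short proteins, had 23 of 76 higher (30.3%) and 6 lower (7.89%). Of all genes, 18.6% were higher and 20.1% lower. The medians of the list were 0.22, -0.32 and -0.37 in the 3 fractions, and across the alternatives its rises numbered 16 to 33. In 37 of the 76 (48.7%, against 7.09% of all genes) the high polysome change was below the monosome change. In 2 (2.63%, against 10.7%) it was above. Ndufa4, at 155, 133 and 155 CPM in WT and 346, 339.5 and 386 CPM in KO (1.28), and Ndufa9, at 48.6, 48.6 and 59.5 CPM and 116, 143 and 132 CPM (1.31), rose most among those with at least 10 CPM, and both lie on chromosome 6. Mitochondrial ribosomal proteins had 9 of 74 higher (12.2%) and 8 lower (10.8%), both shares below those of all genes (median 0.05). The high polysome change was below the monosome change in 27 (36.5%) and above it in none. Across the alternatives the rises numbered 7 to 14 and the falls 5 to 10, with 5 falls without KO gradient 3. Mrpl3 rose by 1.20, from 29.9, 34.8 and 27.8 CPM to 56.4, 78.6 and 80.4 CPM, with a high polysome change of 0.02. Long chromatin regulators had the reverse order of medians. Of 37 tested 10 fell (27.0%) and 3 rose (8.11%), with medians of -0.32, -0.19 and 0.62. The high polysome change was above the monosome change in 20 (54.1%) and below it in none. The falls in the monosome numbered 5 without WT gradient 2, without KO gradient 3 or with library size alone, 6 without WT gradient 3 or at equal depth, and 4 with no filter on low counts. The rises numbered 1 when WT gradient 2 or 3 or KO gradient 2 or 3 was left out. Bptf, a subunit of the NURF remodeller, was at 42.2, 44.8 and 46.4 CPM in WT and 20.8, 31.9 and 23.1 CPM in KO (-0.85). Chd3, a remodelling ATPase, went up in both fractions, by 1.25 and 1.99.

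The cytoskeleton list rose as a group. Of 32 actin and intermediate filament genes tested 20 rose and 1 fell, against 18.6% rising among all genes, with a median of 0.86 (monosome), 0.76 (low polysome) and 0.77 (high polysome). Krt8, a keratin of simple epithelia, was at 2.39, 1.63 and 3.94 CPM in WT and 33.2, 20.9 and 23.5 CPM in KO (3.25 ± 0.40, adjusted p = 2.5e-06). Its partner Krt18 was at 6.37, 5.11 and 4.97 CPM and 60.6, 34.4 and 29.4 CPM (2.86). Actb, the cytoplasmic actin, was at 1512, 1959 and 1250.3 CPM in WT and 3054, 2665 and 2656 CPM in KO (0.85 ± 0.18, adjusted p = 8.7e-04). The single fall was in Vim, the filament protein of mesenchymal cells, from 54.2, 50.6 and 55.1 CPM to 17.4, 20.1 and 21.5 CPM (-1.44), with a high polysome change of -0.09. Its difference between fractions was 1.35 ± 0.22 (adjusted p = 6.4e-04). The summed level of the list was 5261 to 6102 CPM in WT and 9589 to 11126 CPM in KO. Among 16 basement membrane genes 2 rose (12.5%) and 3 fell (18.8%), both shares below those of all genes. Nid1, a laminin linker, went from 176, 200.02 and 217 CPM to 70.4, 79.2 and 74.3 CPM (-1.41), and Ddr1, a collagen receptor, from 63.3, 70.9 and 76.04 CPM to 159, 168 and 154 CPM (1.18).

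Pluripotency genes moved in both directions. Of 24 tested 3 rose (12.5%) and 7 fell (29.2%), with a median of -0.05, against 18.6% and 20.1% of all genes. The rises numbered 1 without WT gradient 3 or without KO gradient 3. Pou5f1, the core factor OCT4, was at 27.1, 26.7 and 22.2 CPM in WT and 19.5, 29.01 and 26.2 CPM in KO, so the groups overlapped (-0.02 ± 0.20, adjusted p = 0.94). Nanog, a core factor encoded on chromosome 6, at 287, 307 and 228 CPM and 308, 362 and 305 CPM, did not pass the test (0.25 ± 0.19, adjusted p = 0.29). Sox2 fell, from 353, 353 and 315 CPM to 199, 238 and 221 CPM (-0.63 ± 0.11, adjusted p = 2.1e-04). Among the factors that fell were Lin28a, an RNA-binding protein that blocks let-7 maturation, from 43.8, 40.4 and 30.9 CPM to 19.9, 7.98 and 12.2 CPM (-1.59), and Tfcp2l1, a naive state factor, from 344, 385 and 311 CPM to 169, 191 and 181 CPM (-0.94). Gdf3, a TGF-beta family ligand on chromosome 6, rose from 179, 208 and 157 CPM to 284, 323 and 285 CPM (0.72). Tdgf1, a co-receptor of Nodal, rose by 0.57 in the monosome and changed by -0.59 in the high polysome.

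Markers of the primed epiblast, the state that follows naive pluripotency, had more falls than rises. Of 14 listed 9 were tested, of which 5 fell (55.6%) and 2 rose (22.2%), with a median of -0.82, against 20.1% and 18.6% of all genes. The falls numbered 3 at equal depth, and there were 0 rises when WT gradient 1 or 2 or KO gradient 3 was left out and 1 when any other library was. Otx2, a driver of that transition, went from 43.8, 48.3 and 63.2 CPM to 8.68, 10.2 and 5.13 CPM (-2.75 ± 0.25, adjusted p = 6.8e-08). Dnmt3b, a de novo DNA methyltransferase, went from 75.7, 67.8 and 55.9 CPM to 30.6, 20.3 and 21.03 CPM (-1.47). The 2 rises were in Dnmt3a and Nodal. Dnmt3a had 68, 119 and 181 raw counts in WT and 342, 332 and 328 in the deeper KO libraries. Nodal had 320, 566 and 614 raw counts in WT and 1131, 1622 and 1425 in KO. Raw counts are not scaled to the size of the library, and the larger of these 2 rises was 0.44 on the log2 scale. Of 21 germ layer markers 13 were under 3 CPM in all 6 monosome libraries. Of the 7 tested 3 fell (42.9%) and 1 rose (14.3%). The rise was in Krt7, at 1.99, 0.697 and 0.414 CPM in WT and 8.17, 7.13 and 4.62 CPM in KO. Krt7 is a keratin of simple epithelia, so its rise is not read as that of a germ layer. Of 16 fibroblast markers, which feeder cells would bring, 11 were under 3 CPM in every monosome library and 5 had no count at all, among them Col3a1 and Dcn. Fn1, a matrix protein that ESCs also express, made up most of their summed level, which was 233 to 287 CPM in WT and 137 to 161 CPM in KO. Transcripts of 2-cell-like cells, 9 of which were in the table, were all under 3 CPM, with sums of 0.79 to 2.31 CPM in WT and 6.77 to 7.58 CPM in KO.

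As among all genes, most genes of the pathway in which DDX6 acts did not pass the test in the monosome. Among 13 P-body and decapping genes 4 fell (30.8%), Ddx6 included, and 1 rose (7.69%), with a median of -0.10, against 20.1% and 18.6% of all genes. The falls numbered 2 without WT gradient 2 or 3, and there were 0 rises without any of these or without KO gradient 2 or 3. Xrn1, the 5′ to 3′ exonuclease, was at 15.5, 29.3 and 29.8 CPM in WT and 14.8, 15.1 and 13.1 CPM in KO (-0.81 ± 0.24, adjusted p = 0.011). Eif4enif1, the 4E-T protein that binds DDX6, was at 52.2, 45.3 and 42.9 CPM and 58.4, 68.7 and 60.7 CPM (0.44). Of 15 CCR4-NOT genes 2 fell (13.3%) and 1 rose (6.67%), both shares below those of all genes (median -0.11). The scaffold Cnot1, to which DDX6 binds, went from 134, 121 and 112 CPM to 76.4, 90.05 and 75.5 CPM (-0.59), and the antiproliferative adaptor Tob1 from 45.00, 38.6 and 35.6 CPM to 70.8, 78.7 and 83.6 CPM (0.99). Among 11 genes of the miRNA pathway 2 fell (18.2%) and 1 rose (9.09%), again below the shares of all genes (median -0.33), and 1 fell without WT gradient 1 or without KO gradient 2. Ago2, the slicing Argonaute, went from 237, 248 and 235 CPM to 155, 158 and 186 CPM (-0.54), while the GW182 family member Tnrc6a went from 60.1, 69.00 and 65.1 CPM to 97.5, 102 and 95.3 CPM (0.60). Its paralog Tnrc6c went the other way (-0.60).

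The ESCC miRNAs (ESC-specific cell cycle regulating miRNAs) make up a large share of the miRNAs of ESCs. Their shared seed, bases 2 to 8, is given in capitals for 5 members from RefSeq. Matches to it in the listed targets were not searched.
miR-291a-3p: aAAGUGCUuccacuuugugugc
miR-294-3p: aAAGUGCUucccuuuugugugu
miR-295-3p: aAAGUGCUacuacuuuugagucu
miR-302b-3p: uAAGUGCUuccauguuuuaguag
miR-302d-3p: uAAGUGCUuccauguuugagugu
The list of targets is a short hand-made one, a small part of the targets of this family, and was chosen with earlier results of these data known, so its count says nothing about the family's targets at large. Of its 9 genes tested 4 rose in the main fit (44.4%, against 18.6% of all genes) and none fell. However, edgeR, DESeq2 and several other limma fits each called 1 lower, among them those with DESeq2 size factors and with clones weighted equally. The medians were 0.05 (monosome), 0.29 (low polysome) and 0.75 (high polysome), and the monosome median was -0.0282 without WT gradient 3 and -0.0407 without KO gradient 1. Tgfbr2, a TGF-beta receptor, was at 3.58, 3.72 and 2.90 CPM in WT and 20.8, 29.3 and 27.4 CPM in KO (2.89 ± 0.38, adjusted p = 6.5e-06). Dkk1, a secreted WNT inhibitor, was at 0.398, 1.86 and 0.829 CPM and 12.4, 9.79 and 10.4 CPM (3.32). Both were near the limit of detection in WT. Rela, a subunit of NF-kB, went from 84.4, 70.2 and 75.6 CPM to 124, 98.9 and 112 CPM (0.54), and Cdkn1a, the cell cycle inhibitor p21, from 489, 543 and 422 CPM to 778, 686 and 636 CPM (0.53). Lats2, a kinase of the Hippo pathway and a listed target, was at 23.5, 18.6 and 19.1 CPM in WT and 18.2, 15.8 and 15.5 CPM in KO, which did not pass the test (-0.28 ± 0.18, adjusted p = 0.25).

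The remaining lists changed by small medians. Their shares stand against the 18.6% of all genes that rose and the 20.1% that fell. Initiation factors had 5 of 31 higher (16.1%) and 12 lower (38.7%, median -0.17). Eif2s2, the beta subunit of eIF2, fell from 372, 500.2 and 455 CPM to 130.02, 174 and 146 CPM (-1.56), with a high polysome change of -2.04. DNA replication genes had 13 of 29 lower (44.8%, against 20.1% of all genes) and 1 higher (median -0.32), and 8 were lower without WT gradient 1 or with no filter on low counts. Lig1, the replicative ligase, went from 494, 483 and 521 CPM to 306, 275 and 264 CPM (-0.83). The rise was in Rpa3, the small subunit of replication protein A on chromosome 6, from 39.4, 36.2 and 24.4 CPM to 152, 101 and 168 CPM (2.10 ± 0.57, adjusted p = 0.0066), and its high polysome change was -0.93. In the integrated stress response list 8 of 23 fell (34.8%) and none rose in the main fit (median -0.20). The rises numbered 1 by edgeR, by DESeq2 and in the limma fit of the monosome libraries only. The falls were led by Chac1, a glutathione-degrading enzyme, from 31.9, 43.7 and 39.6 CPM to 10.8, 6.29 and 8.98 CPM (-2.19). Among p53 targets 4 of 22 rose (18.2%) and 8 fell (36.4%, median -0.34), with 2 rises when WT gradient 2 or 3 or KO gradient 2 was left out. Perp, a desmosome protein, rose from 14.7, 9.52 and 11.4 CPM to 43.00, 44.5 and 53.2 CPM (2.03). Signalling genes of the LIF, WNT, BMP and Nodal pathways had 9 of 33 higher (27.3%) and 2 lower (6.06%, median 0.10). The falls numbered 1 when WT gradient 2 or KO gradient 1 or 3 was left out. Id1, a BMP target, rose from 3.19, 4.88 and 3.73 CPM to 21.9, 16.2 and 17.96 CPM (2.18), while Lefty2, a Nodal inhibitor and target, fell from 109, 149.6 and 142 CPM to 17.6, 35.5 and 30.7 CPM (-2.31). Glycolysis genes had 4 of 22 higher (18.2%) and 6 lower (27.3%, median -0.19), with 2 higher when WT gradient 2 or 3 or KO gradient 2 was left out. The glucose transporter gene Slc2a3 and the enzyme gene Tpi1, both on chromosome 6, rose by 1.12 and 1.38. For the proteasome 5 of 33 rose (15.2%) and 2 fell (6.06%, median 0.0047). There were 0 falls without WT gradient 2 or KO gradient 3 and 1 without WT gradient 3 or KO gradient 1. Cholesterol synthesis had 2 of 24 higher (8.33%) and 7 lower (29.2%, median -0.21). Polycomb genes had 3 of 27 higher (11.1%) and 4 lower (14.8%, median -0.04), with 5 higher without KO gradient 2 and 2 lower without KO gradient 3. Cyclins and cell cycle brakes had 6 of 28 higher (21.4%) and 5 lower (17.9%, median -0.15).

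**Figure D5:**
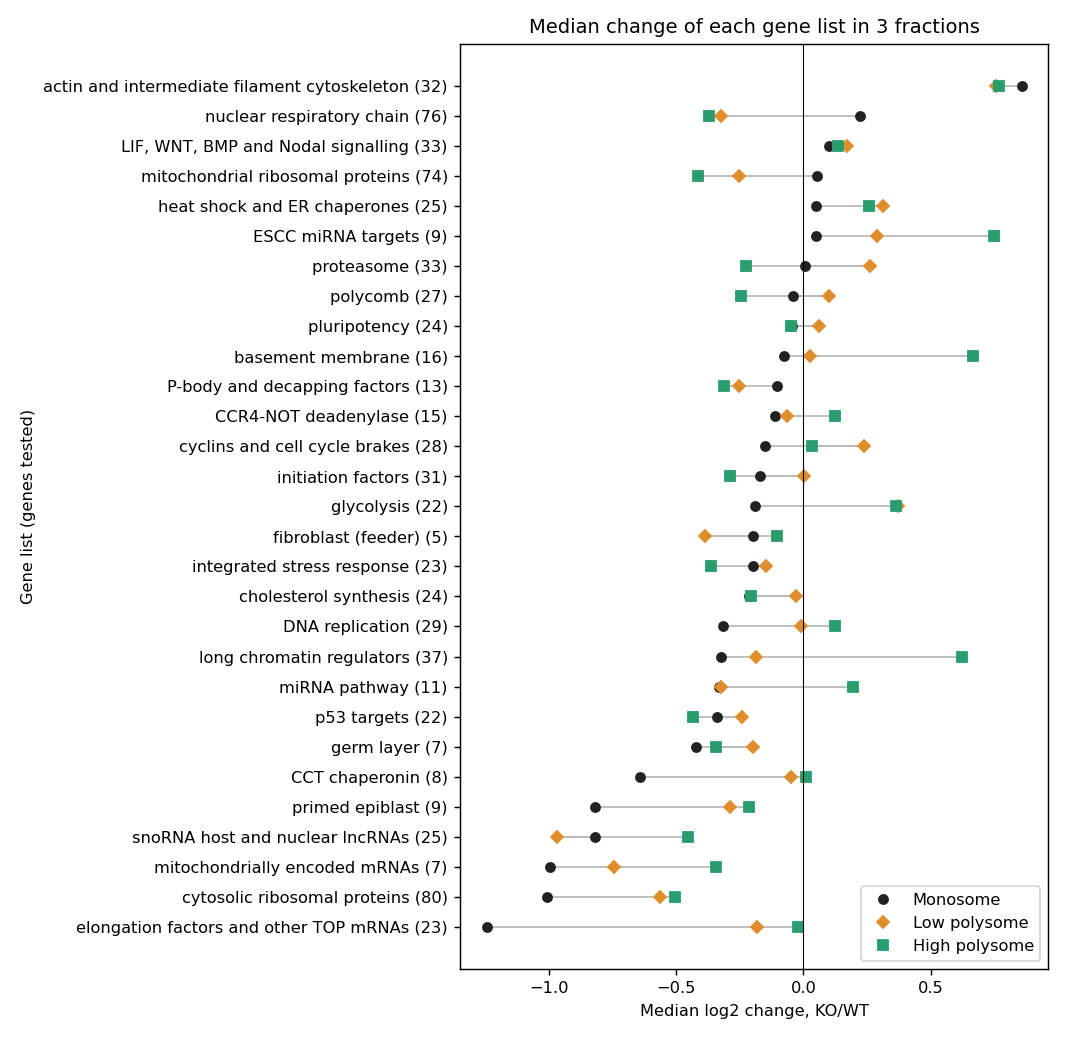
Median log2 change KO/WT of each gene list in the monosome (black circles), low polysome (orange diamonds) and high polysome (green squares), with the number of genes tested in brackets and lists ordered by the monosome median. The cytoskeleton list is highest (0.86) and the elongation factor and TOP list lowest (-1.24) in the monosome. For the TOP, CCT and long chromatin lists the high polysome point lies to the right of the monosome point, and for the respiratory chain and mitochondrial ribosome lists to its left.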

How the data were processed

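RNA from the monosome, low polysome and high polysome of 3 WT and 3 KO gradients was sequenced by the authors with QuantSeq 3′ FWD, which reads transcript 3′ ends. Per the file headers and the study's methods, the authors trimmed reads with cutadapt 1.14, aligned them with STAR 2.5.3a to mm10 and made counts per gene with featureCounts 1.5.3, in strand-specific mode and Gencode M14. Reads were not collapsed by molecular identifiers as far as the sources used here say. The deposited counts were used as they are, without the 92 ERCC rows. Symbols, coordinates and coding lengths came from Gencode M21 on the same assembly (51274 identifiers matched, 193 did not).

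In R 4.3.3, TMM scaling by edgeR 4.0.16 was followed by voom and limma 3.58.1, with the 6 groups of all 18 libraries in a joint model, with Benjamini-Hochberg adjustment over 12705 genes and two-sided tests. Levels are TMM-scaled CPM. Log2 changes are from the fit, so they need not equal ratios of the printed CPM. The difference between fractions was the interaction contrast. Because TMM centres the typical gene, each change is measured against the bulk of genes in that fraction. Named genes were Ddx6 and, among called genes whose 6 monosome libraries did not overlap, the 8 largest rises and 8 largest falls at a mean of at least 10 CPM, the next 6 of each at 100 CPM or more, and up to 2 rises and 2 falls of a gene list, while other list members are given by value. The members and lists were chosen with earlier results of these data known. On simulated counts for the monosome comparison limma recovered 100 of 100 genes changed by 2 and 83 of 100 changed by 1 on the log2 scale, with 14 false calls among 12505. Whether these rates hold for the measured libraries, or for genes of low level, was not tested. Replicate libraries differed by more than sampling noise. Deviations of same-numbered WT and KO monosome libraries correlated by 0.07, 0.04 and 0.03. The numbers were therefore not taken as pairs. The alternatives were DESeq2 1.42.0 and edgeR's quasi-likelihood test, other scalings and filters, thinning to equal depth, blocks, and leaving out each library.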

Additional observations from a re-analysis of the deposited data

Results flagged for a closer look

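Of the 86 genes tested whose values the text prints, 29 had a high polysome change that differed from their monosome change at an adjusted p under 0.05 by the interaction contrast of limma. In 19 of them the high polysome change was above the monosome change. The differences on the log2 scale were 2.17 for Eef2, 2.00 for Hsp90ab1, 1.71 for Eef1a1, 1.66 for Nop53, 1.61 for Krt8, 1.57 for Hspa8, 1.51 for Eif4b, 1.42 for Eif3f, 1.37 for Rpl13a, 1.35 for Vim, 1.28 for Rpsa, 1.15 for Cct2, 1.15 for Slc2a3, 1.09 for Lig1, 0.95 for Dnmt3b, 0.93 for mt-Nd1, 0.88 for Tcp1, 0.87 for Bptf and 0.55 for Tfcp2l1. In 10 it was below, with differences of -3.03 for Rpa3, -1.44 for S100a6, -1.37 for Ndufa4, -1.19 for Mest, -1.18 for Mrpl3, -1.16 for Tdgf1, -1.02 for Lgals1, -0.94 for Emp1, -0.93 for Ociad2 and -0.63 for Ndufa9. The monosome and high polysome libraries of a gradient share their cells. Over all genes 10.7% were called above and 7.09% below, so that the printed genes, which were mostly chosen for large monosome changes, are not a fair sample.

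The 4 tested genes annotated to the Y chromosome lay on opposite sides of the WT mean in the clones. In the monosome library of clone 1, Ddx3y was at 12.5 CPM, Eif2s3y at 13.5 CPM, Gm47283 at 339.5 CPM and Uty at 5.61 CPM, each above the WT mean, while both clone 2 libraries were below it. Clone 1 has a single gradient, and the difference was not tested.

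ERCC spike-in sequences, which no comparison used, had 38 to 71 counts in the monosome libraries. This is above the 3 counts that a count of 0 allows.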

How the results depend on the processing

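All 29 named genes kept the direction and the call of their monosome change under every one of the 18 other settings (522 of 522 values). The counts of genes that rose and fell stayed within 1.5 times of 2357 and 2548, with these exceptions. Without a filter on low counts 27427 genes were tested and 3929 fell, and with at least 50 WT counts, an alternative chosen after seeing the data that tests fewer genes, 1496 rose. Leaving out 1 library gave 1744 to 2181 rises and 2011 to 2306 falls. The median log2 change of all genes was -0.0501 with DESeq2 size factors, 0.0330 with library size alone, -0.302 with no filter, -0.0448 with the filter on monosome libraries, -0.0128 with monosome libraries alone and -0.0495 in DESeq2, and it ranged from -0.0444 to -0.0214 when 1 library was left out. The cause of these shifts was not tested. Across the alternatives the median was -1.04 to -0.928 for ribosomal proteins, -1.28 to -1.12 for elongation factors and other TOP mRNAs and 0.693 to 0.961 for the cytoskeleton. Ribosomal protein genes that fell numbered 62 to 76 and none rose. Medians of other lists crossed 0. They ranged from -0.103 to 0.0453 for pluripotency, -0.0407 to 0.21 for the ESCC targets, -0.0657 to 0.0433 for polycomb, -0.0691 to 0.129 for the proteasome, -0.0070 to 0.147 for heat shock and ER chaperones, -0.163 to 0.0166 for basement membrane, -0.533 to 0.16 for germ layer, -0.94 to 0.0014 for fibroblast markers and -0.195 to 0.0074 for cyclins and cell cycle brakes, the last turning with no filter only. The number of named genes whose high polysome change differed from the monosome change was 8, and 6 to 9 under the alternatives. With the replicate block 2450 genes rose and 2658 fell, 4842 of the 4905 calls were kept, and the median was -0.0345. With clones weighted equally 2388 rose and 2528 fell. The shallow WT libraries limit genes of low level, since 1 count in WT gradient 1 is worth 0.398 CPM.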
